A study of Homo sapiens with 12 samples.

Results

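The mRNAs described here were those that lay more than 2-fold higher after 10 µM girolline than in each of 2 DMSO libraries. They were chosen from the RNA-seq values themselves: the level had to average at least 10 CPM (counts scaled to the library total) over the 4 RNA-seq libraries, and the 10 µM level had to exceed both DMSO levels by more than 1 on the scale of log2(CPM + 0.1). Of 19587 coding transcripts at or above that average, 42 met the rule, which is 0.214%, and 32 lay more than 2-fold below both DMSO libraries, which is 0.163%. Since the rule fixes the direction and least size of the 10 µM difference, those values describe the members and no test is given for them. No transcript at or above 10 CPM lay over 2-fold above both DMSO libraries at 1 µM, and 2 differed over 2-fold between the DMSO libraries, 0.0102% of 19587. The count rests on having both DMSO libraries: 98 transcripts passed without DMSO 1 and 58 without DMSO 2. All 42 members were among them in each case, which follows largely from the rule, since it already requires both comparisons.

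The cells were HEK293T Flp-In, an established line of human embryonic kidney origin that carries a site for inserting transgenes, labelled wild type. They received DMSO, the solvent, or girolline at 1 or 10 µM for 2 h. Each kind of library held 2 with DMSO, 1 at 1 µM and 1 at 10 µM, so neither dose had a replicate of its own. RNA-seq totals ran from 28424272 to 42194871 counts, and totals of disome libraries, made from the longer fragments that a pair of touching ribosomes shields, from 3091715 to 5769026. Whether the DMSO libraries are separate cultures is not given, and the p-values reflect only the spread between them, which may be technical. In bulk samples such as these, fewer cells and less RNA per cell cannot be told apart.

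Girolline is a small molecule from a marine sponge, and the series title places its action at eIF5A. That factor carries the modified amino acid hypusine, binds ribosomes whose peptidyl transfer is slow at certain sequence contexts, and also aids termination. When a ribosome stalls, the one behind can run into it, and the joined pair resists nuclease digestion as a disome. The level of an mRNA reflects both its synthesis and its decay, and mRNAs with short lifetimes can change level within hours. RNA-seq here used poly(A) selection, so a change in the amount of an mRNA and a change in how well it was selected cannot be told apart.

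The tables identify transcripts by UCSC IDs, and neither they nor the reference tables used here pair these IDs with genes. Members are therefore described by coding length, by place in the file and by values, without gene names, chromosomal positions or sequences. The 42 members stood for 49 transcript IDs, because transcripts with identical counts were merged. Grouping members with at most 10 coding rows between neighbours gave 19 loci, 12 of them with 1 member and 7 with several. Isoforms of a gene share reads, and neighbouring genes can fall in 1 such locus. How reads common to near-identical transcripts were counted is not given in the sources used here, so values of neighbouring transcripts of equal length are uncertain to that extent. With members of a locus joined where all 4 RNA-seq counts lay within 10% of each other, 36 sets of reads remained.

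The members had short to middling coding regions, with a median of 171 codons and a range from 55 to 968, against a median of 427 codons for all transcripts at or above 10 CPM. Of the 42, 22 had 100 to 199 codons, or 52.4%, where 18.1% of all transcripts at this level did. Of these 22, 17 were neighbours in 1 stretch of the file. Among the other 25 members, 5 had 100 to 199 codons, and the median was 334 codons. None was longer than 999 codons, where 14.5% of all transcripts were. Particular lengths recurred: 10 members had exactly 131 codons, and 7 had 127. Levels of the members per 100 counted codons spanned a wide range. At 10 µM the highest was 590 CPM per 100 codons, in a member of 127 codons with 262 and 282 in DMSO, and the lowest was 3.08, in a member of 779 codons with 1.26 and 1.52 in DMSO.

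Only 3 members lay more than 4-fold above both DMSO libraries, and these were single-member loci of 332, 368 and 281 codons. Transcript uc001cze.4, of 332 codons, had 36.7 and 26.2 CPM in the DMSO libraries, 32.2 CPM at 1 µM and 187 CPM at 10 µM. Its 10 µM level exceeded the DMSO levels by 2.35 and 2.83 on the log2 scale, and its 1 µM level fell between them. Transcript uc003mbv.3, of 368 codons, had 8.69 and 7.95 CPM in DMSO, 8.62 CPM at 1 µM and 36.9 CPM at 10 µM, which gave differences of 2.07 and 2.20. Again the 1 µM library lay between the DMSO libraries. The member of 281 codons had 23.1 and 23.6 CPM in DMSO, 32.8 CPM at 1 µM and 96.6 CPM at 10 µM, with differences of 2.06 and 2.03. Here the 1 µM library was already above both, by 0.51 and 0.47.

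The other 39 members lay between 1.00 and 1.65 above the nearer DMSO library on the log2 scale, and the median over all 42 was 1.25. Just inside the threshold were members of 131, 334 and 779 codons, with smaller differences of 1.0045, 1.0095 and 1.0141. Just outside it were transcripts of 354, 316 and 130 codons, at 0.9957, 0.99 and 0.99. With library totals rescaled by edgeR's TMM, 38 transcripts passed, all of them members, so the last few depend on how depth is scaled. In the DMSO pair itself, 28 members were lower in DMSO 2 and 14 higher, with a median difference of -0.10 (DMSO 2 minus DMSO 1), beside 0.04 over all transcripts at or above 10 CPM. The widest gap within the pair was -0.64, in the member of 475 codons, which had 25.9 and 16.6 CPM in DMSO, 19.7 CPM at 1 µM and 54.7 CPM at 10 µM.

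**Figure D1:**
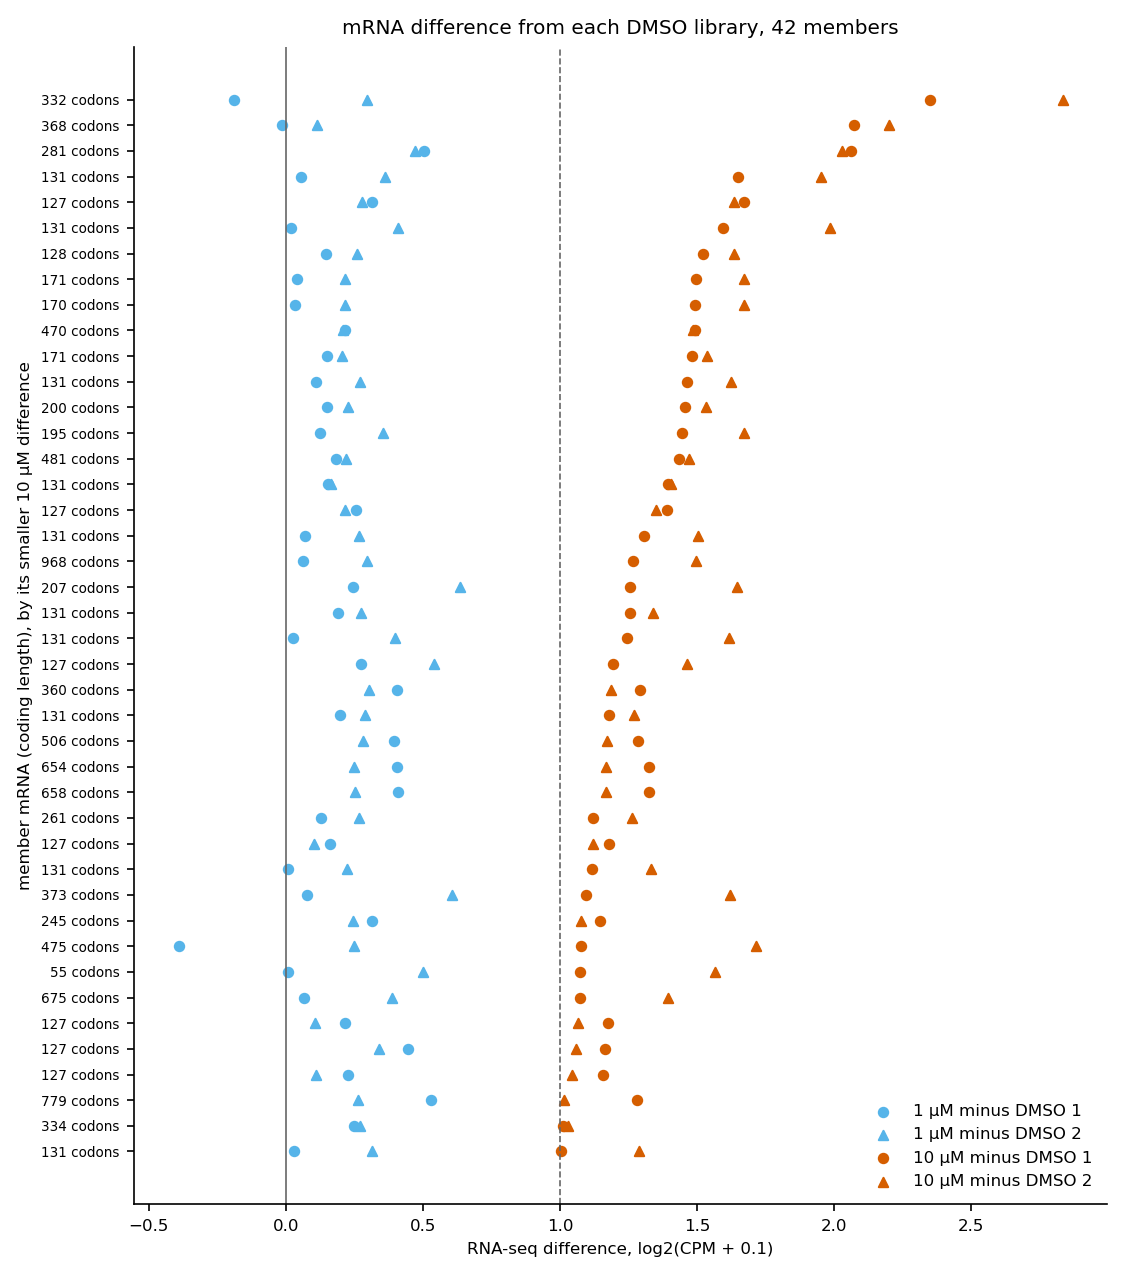
Each line is 1 of the 42 member mRNAs, named by coding length and ordered by its smaller 10 µM difference; points give the RNA-seq difference on the log2(CPM + 0.1) scale of 1 µM (blue) and 10 µM (orange) from DMSO 1 (circles) and DMSO 2 (triangles). The dashed line is the threshold of 1, which every orange point passes by rule, and the blue points lie between -0.39 and 0.64.

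At 1 µM the same mRNAs lay far closer to DMSO. Their mean difference from the DMSO pair had a median of 0.21 on the log2 scale and ran from -0.07 to 0.49, where all transcripts at or above 10 CPM had a median of 0.03. The 1 µM level was above both DMSO libraries in 39 of 42 members and between them in 3, while 34.2% of all transcripts were above both and 18.4% below both. It was below the 10 µM level in all 42. This comparison shares its DMSO libraries with the rule, so the 1 µM values are set beside the 10 µM values and lend them no support. In edgeR (quasi-likelihood F-test, p-values adjusted by Benjamini-Hochberg over 56229 transcripts), 0 members passed an FDR of 0.05 at 1 µM, and 0 of all transcripts did, 0.0%. An unadjusted p under 0.05 was seen in 2 members and in 557 of all transcripts. By DESeq2 the count called was 0 as well, and 2 members were under 0.05 unadjusted. The sum of counts in the members was 0.244% and 0.231% of the RNA-seq total in the DMSO libraries, 0.273% at 1 µM and 0.602% at 10 µM.

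Many of the members lay close together in the file. The window of 200 coding rows with the most members, a window set after the values were seen, held 17 of the 42, or 40.5%, between rows 27684 and 27831 of 93916 coding rows. These rows are 0.158% of all coding rows. Of the 17, 9 had 131 codons, 6 had 127 codons, and a pair with nearly equal counts had 171 and 170. The rows of this stretch fell into recurring lengths, and their RNA-seq differences at 10 µM varied with length. Of its 10 transcripts of 131 codons at or above 10 CPM, 9 were members, and the tenth lay 0.81 above the nearer DMSO library. These 10 had mean differences from the DMSO pair of at least 0.96 on the log2 scale, with a median of 1.35.

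Of 17 transcripts of 127 codons in the same stretch, 6 were members, and 13 lay over 0.8 above the nearer DMSO library. Some transcripts of equal length had nearly equal counts, so counts by length may hold shared reads more than once. Examples are a pair of 127 codons at mean levels of 419 and 417 CPM and a pair of 131 codons at 155 and 158 CPM. The mean differences of the 17 transcripts of 127 codons ran from 0.57 to 1.65, with a median of 0.94. A pair of 129 codons, at 0.99 each, held no member. The 6 transcripts of 104 codons held none either, with differences of 0.14 to 0.64 and a median of 0.57, and the 2 of 137 codons lay at 0.28 and 0.67. In the DMSO pair these 5 length groups had median differences between -0.25 and 0.06 (DMSO 2 minus DMSO 1), and at 1 µM their medians lay between 0.10 and 0.19, each smaller than the 10 µM median of its own group.

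Outside the stretch these lengths did not stand out. Only 1 of 33 transcripts of 131 codons was a member there, and the median mean difference of the 33 was -0.07. Of 27 transcripts of 127 codons elsewhere 1 was a member, with a median of 0.10 over the 27. These last 2 members sat on adjoining rows far from the stretch. The one of 131 codons had 83.2 and 63.4 CPM in DMSO, 84.3 CPM at 1 µM and 251 CPM at 10 µM, and the one of 127 codons had 135 and 145 CPM in DMSO, 184 CPM at 1 µM and 302 CPM at 10 µM. In both the 10 µM library was the highest. The 1 µM library also lay above both DMSO libraries in each. On the log2 scale the differences were 0.45 and 0.34 for 127 codons, and 0.02 and 0.41 for 131 codons.

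**Figure D2:**
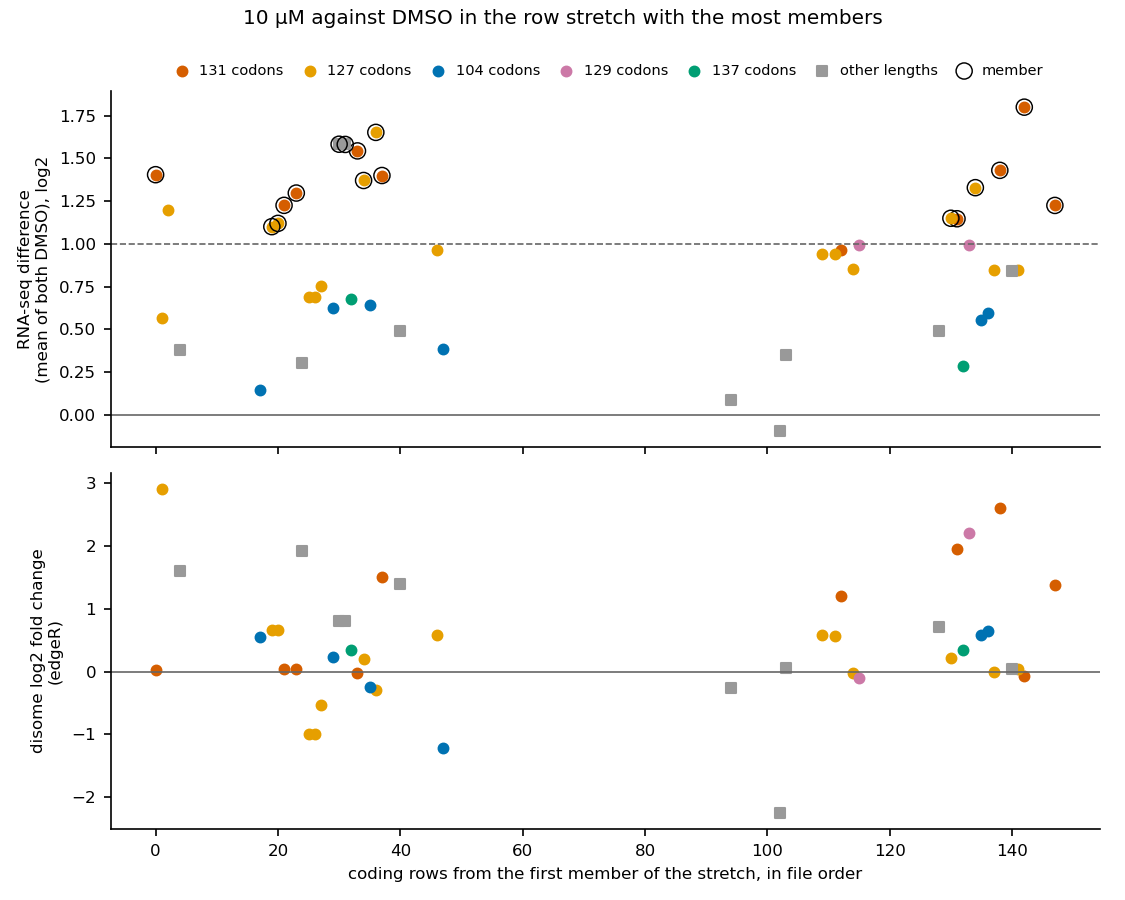
The 47 transcripts at or above 10 CPM in the stretch, by distance in coding rows from its first member. The upper panel gives the RNA-seq difference of 10 µM from the mean of both DMSO libraries (log2, dashed line at 1, members ringed). The lower panel gives the disome log2 fold change at 10 µM for those tested. Of the 17 transcripts of 127 codons, 15 were tested in disomes, and all of the other lengths were. In the upper panel all transcripts of 131 codons lie at 0.96 or higher, and those of 104 and 137 codons at 0.67 or lower; in the lower panel those of 131 codons span -0.07 to 2.60 and those of 127 codons reach 2.91.

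The remaining 4 loci with several members were smaller. Members of 658, 654, 506 and 360 codons lay within 7 rows of each other, with 10 µM differences of 1.17 to 1.33 from either DMSO library, and the counts of the longest pair were nearly equal. Near the end of the file, members of 968, 200, 171 and 128 codons formed another such group. The longest of these had 124 and 105 CPM in DMSO, 129 CPM at 1 µM and 297 CPM at 10 µM. Members of 481 and 470 codons had nearly equal counts, with 7.97 and 7.77 CPM in DMSO for the longer one, 9.06 CPM at 1 µM and 21.7 CPM at 10 µM. In the fourth, a member of 373 codons had 13.6 and 9.44 CPM in DMSO, 14.4 CPM at 1 µM and 29.2 CPM at 10 µM, and one of 207 codons had 9.29 and 7.07 CPM in DMSO, 11.0 CPM at 1 µM and 22.4 CPM at 10 µM. In all 4 loci the 10 µM library was the highest. The other 3 libraries differed among themselves as well, by up to 0.64 on the log2 scale between 1 µM and DMSO 2 in the member of 207 codons, and 1 µM was 0.41 above DMSO 1 in the member of 658 codons.

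Disome footprints were counted in libraries that the rule did not use. Over the 40 members tested, log2 fold changes at 10 µM ran from -1.05 to 2.60, and 30 were positive. The footprint counts were not adjusted for mRNA level. By selection, the members' mean RNA-seq difference at 10 µM had a median of 1.38 on the log2 scale. Their disome fold changes are therefore not changes per mRNA. Of 40 members tested, 17 rose at 10 µM, 2 fell and 21 did not pass, by edgeR's quasi-likelihood test at an FDR of 0.05 over 34606 transcripts; the other 2 had too few footprints. The share that rose was 42.5%, against a background of 20.8% over all transcripts and 30.5% over those of 100 to 199 codons, while 14.9% of all transcripts and 9.12% of those of 100 to 199 codons fell. No test was made of that difference, and the 17 rows came from 14 sets of reads in 9 loci. Neither background was held to the members' RNA-seq minimum. Of the 19587 transcripts at that minimum, 38.2% had a 10 µM disome CPM above both DMSO libraries and 48.7% below both. Of the 42 members, 26 lay above both and 14 below both. At a mean of at least 10 disome CPM, 14 of 31 members rose and 2 fell, beside 4057 and 3311 of all 14506 transcripts. The median log2 fold change was 0.63 over the 40 members and -0.02 over all transcripts tested. The members' median was clearly smaller in the 2 settings with the fewest members. It was 0.27 over the 31 members at a mean of at least 10 disome CPM. With 1 transcript kept per block of 10 coding rows, it was 0.14 over 10 members. All transcripts had a median of -0.01 in each of those 2 settings. The members' median was 0.63 with DESeq2 size factors, 0.64 with no filter on low counts and 0.66 by DESeq2. Pooling the disome counts with RNA-seq in 1 fit gave 0.67. In such pooled fits, dropping DMSO 1 from the disome counts gave 0.51, and dropping DMSO 2 gave 0.59. Over all transcripts these last fits had medians of -0.11 and 0. DESeq2 gave an adjusted p for 36 members, of which 9 rose and 0 fell, against 7.96% higher and 4.33% lower over all 20177 transcripts with one; 2 members with lower footprints were under 0.05 unadjusted.

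The 3 mRNAs with the largest 10 µM differences split in their footprints. Transcript uc001cze.4 had 129 and 128 disome CPM in DMSO, 153 at 1 µM and 282 at 10 µM. At the higher dose it rose by 1.24 on the log2 scale (SE 0.17, adjusted p = 2.04e-12 by edgeR, 3.80e-05 by DESeq2). Transcript uc003mbv.3 had few footprints, 14 and 24 counts in DMSO, 41 at 1 µM and 87 at 10 µM, and rose by 1.81 on the log2 scale (SE 0.31, adjusted p = 7.20e-08 by edgeR, 0.103 by DESeq2). The member of 281 codons went the other way, with 46.4 and 40.2 disome CPM in DMSO, 33.1 at 1 µM and 19.3 at 10 µM. Its footprints fell by 1.05 on the log2 scale (SE 0.25) with adjusted p = 0.000194 by edgeR and 0.0993 by DESeq2, while its mRNA level was over 4-fold higher in the same dose.

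The other member whose footprints fell had 475 codons, with 98.9 and 83.0 disome CPM in DMSO, 83.0 at 1 µM and 50.4 at 10 µM. At the higher dose they fell by 0.74, again as log2 (SE 0.21; adjusted p = 0.00209 by edgeR, 0.129 by DESeq2). This mRNA had the highest disome level relative to its mRNA in DMSO of all members, a ratio of disome CPM to RNA-seq CPM of 4.28, followed by uc001cze.4 at 4.08. The median ratio was 0.712 over the 42 members and 0.641 over all transcripts at or above 10 CPM. The lowest ratio was 0.0103, in a member of 127 codons with 1 disome count in the DMSO libraries together.

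**Figure D3:**
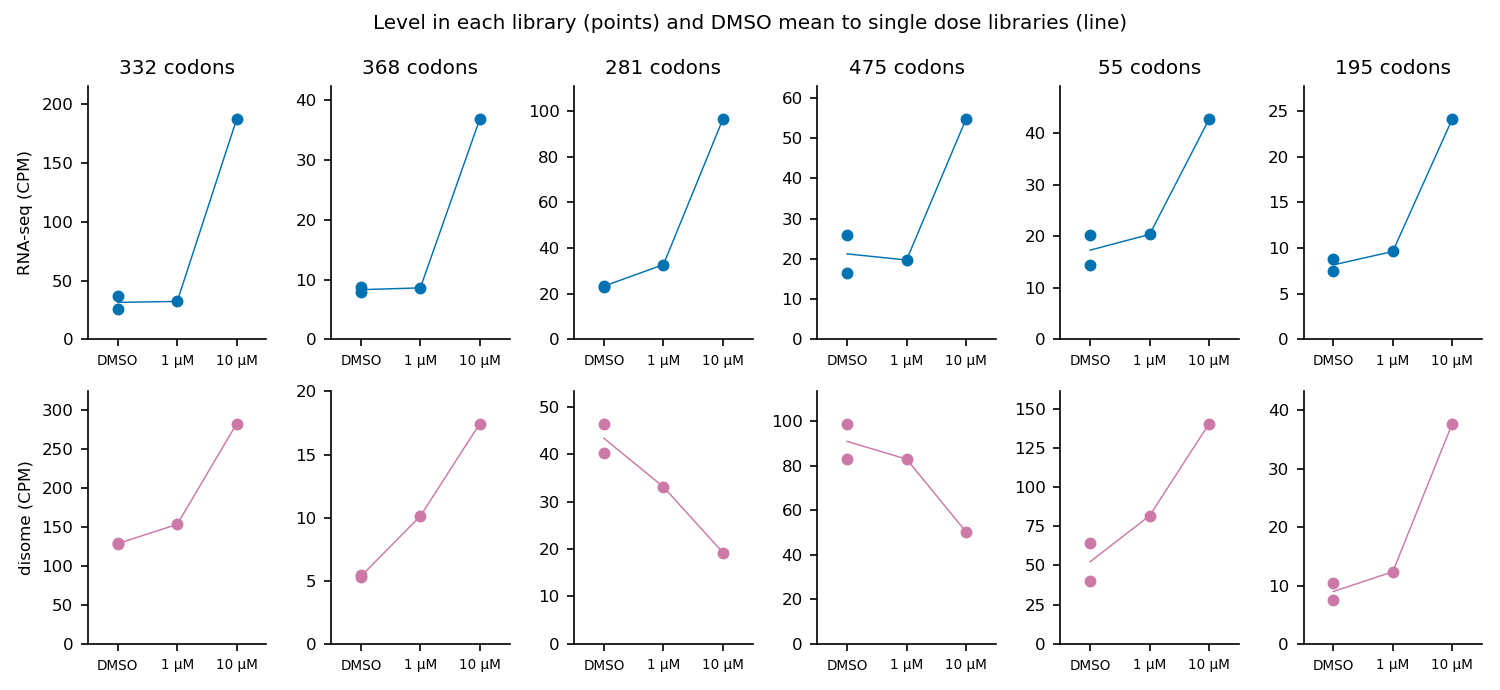
RNA-seq (upper row) and disome (lower row) CPM in each library for 6 members chosen after their values were seen, by dose; points are libraries (2 with DMSO, 1 at each dose) and lines run from the DMSO mean. RNA-seq is highest at 10 µM in each panel, while disome CPM is lowest at 10 µM for the members of 281 and 475 codons and highest there for the other 4.

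Members of 1 length could differ widely in footprints. Of the 10 members of 131 codons, 5 rose in disomes at 10 µM, by 0.89 to 2.60 on the log2 scale, and 5 did not pass, at -0.07 to 0.04. The largest rise was in a member with 38.6 and 29.8 RNA-seq CPM in DMSO, 39.3 at 1 µM and 91.5 at 10 µM. Its disome CPM was 22.3 and 22.4 in DMSO, 46.7 at 1 µM and 125 at 10 µM. The log2 fold change at 10 µM was 2.60 (SE 0.21, adjusted p = 4.92e-32 by edgeR, 1.51e-10 by DESeq2). A few rows further lay another member of 131 codons whose mRNA differed more from DMSO but whose footprints did not pass. It had 39.97 and 32.4 RNA-seq CPM in DMSO, 41.6 at 1 µM and 126 at 10 µM, beside 23.0 and 30.7 disome CPM in DMSO, 18.0 at 1 µM and 24.1 at 10 µM (log2 fold change -0.07, SE 0.25, adjusted p = 0.841 by edgeR). The difference between these 2 members was not tested.

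Among the 6 members of 127 codons that were tested, 2 with nearly the same counts rose by 0.66 (adjusted p = 0.0687 and 0.0696 by DESeq2), and 4 did not pass, at -0.29 to 0.21. Outside these lengths, the shortest member, of 55 codons, had 64.6 and 40.2 disome CPM in DMSO, 81.7 at 1 µM and 140 at 10 µM. It rose by 1.56 on the log2 scale at 10 µM (SE 0.19, adjusted p = 2.59e-14 by edgeR, 0.0642 by DESeq2). The member of 195 codons had 7.55 and 10.4 disome CPM in DMSO, 12.4 at 1 µM and 37.7 at 10 µM. It rose by 2.14 (SE 0.26, adjusted p = 1.52e-14 by edgeR, 0.00382 by DESeq2). In the group of 968, 200, 171 and 128 codons, where mRNA levels were 1.26 to 1.64 above either DMSO library, none passed in disomes, with log2 fold changes of -0.19 to 0.02.

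At 1 µM disome footprints rose on 4 of the 40 members, 0 fell and 36 did not pass, by the same edgeR test. The background was 5.39% higher and 1.68% lower over all transcripts, and 8.73% higher and 0.868% lower over those of 100 to 199 codons. The 4 were members of 131 codons, at 0.73, 0.81 and 1.13 on the log2 scale, and the member of 55 codons, at 0.74. All 4 also rose at 10 µM. DESeq2 called none of them, with adjusted p between 0.0547 and 0.657. It gave an adjusted p at 1 µM for only 5754 transcripts, 21 of them members. Of those 5754, 4.8% rose and 0.191% fell. With a disome DMSO library left out, the only replicate spread is that of the RNA-seq DMSO pair, in a joint edgeR fit. By that fit 3 of the 4 passed without DMSO 1, and 1 passed without DMSO 2, the member of 131 codons at 1.13. Among the members lower at 1 µM, 4 had an unadjusted p under 0.05 by edgeR.

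**Figure D4:**
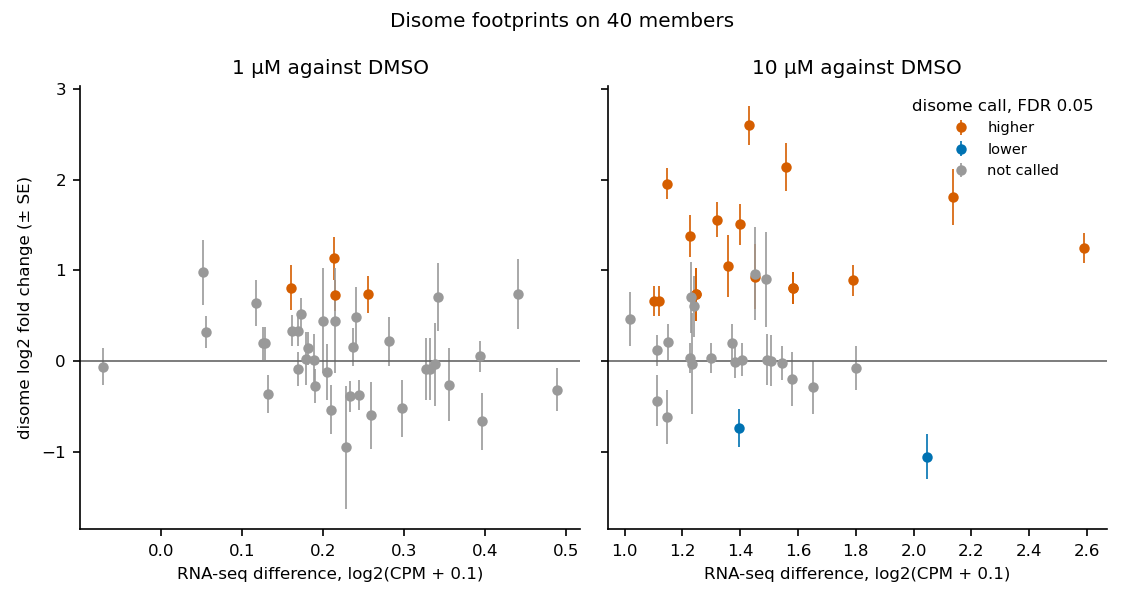
Disome log2 fold change (± SE, edgeR) of the 40 members tested against their RNA-seq difference from the DMSO pair, at 1 µM (left) and 10 µM (right); colours mark calls at an FDR of 0.05. At 10 µM the 17 raised members (orange) span 0.66 to 2.60 and the 2 lowered ones (blue) lie at -0.74 and -1.05; the RNA-seq axes of the panels differ, and the 10 µM axis starts at the threshold.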

How the data were processed

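The authors deposited raw read counts per transcript, 1 table per library. Per the submitters' processing notes the build was hg38, with STAR 2.7.0a and CASAVA 1.8 named without a role; counting tool and annotation release are not given in the sources used here. The deposited length column is in other units than counts and was read as codons; the RNA-seq value lies 20 below the disome value throughout, and RNA-seq levels per length use the smaller one. Rows without a length were left out, and rows with identical counts in a kind were merged, leaving 59394 RNA-seq and 39156 disome rows; these totals scaled CPM. Among transcripts merged in RNA-seq, the longest gave length and disome value.

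Disome and 1 µM RNA-seq counts were tested on whole tables in edgeR 4.0.16 (R 4.3.3) with TMM, filterByExpr and the quasi-likelihood test, 3 groups over 4 libraries, so the spread of a single dose library was taken from the 2 with DMSO. SE is the log2 fold change divided by the root of F. DESeq2 1.42.0 was an alternative. The code was tested on simulated data. No interval is given for single CPM values.

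Members and lists were chosen with earlier results of these data known. The naming rule, without gene names, gives 2 IDs, those of the loci with the largest smaller difference; other members singled out were chosen after their values were seen. Gene lists, cell line markers, promoter sequences and monosome tables, which use Ensembl IDs, need a pairing of IDs and were not used here.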

Additional observations from a re-analysis of the deposited data

How the results depend on the processing

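The 42 members became 40 and 43 with pseudocounts of 1 and 0.01, 38 with TMM and with DESeq2 size factors, 63 and 30 at a mean of at least 5 and 20 CPM, and 47 without merging. Without a CPM minimum 334 passed, 1 transcript per locus left 19, and leaving out a DMSO library gave 58 to 98. Disome rises at 10 µM, 17 in all, became 9 of 36 with DESeq2, beside 1606 of 20177 transcripts. With 1 transcript per block of 10 coding rows, 4 of 10 members rose and 2 fell. Over all transcripts in that setting, 1722 of 7843 rose and 1210 fell. Fewer members rose with either disome DMSO library left out. The 2 falls became 0 of 36 with DESeq2, beside 874 of 20177 transcripts, and kept their direction with either disome DMSO library left out. The 4 rises at 1 µM became 0 with DESeq2, 1 of 10 with 1 transcript per block, and 1 to 3 with a library left out. At a mean of at least 10 disome CPM, 14 of 31 members rose at 10 µM, beside 4057 of 14506 transcripts. At 1 µM 5 of the 31 did, beside 1447 of 14506. That setting and the block setting hold fewer members by construction. The cause of the other losses was not tested. Fits with a disome DMSO library left out were pooled with RNA-seq, added after seeing the data, so their spread is that of the RNA-seq DMSO pair alone. With none left out this joint fit gave 14 rises at 10 µM and 5 at 1 µM over 42 members. Over all 55625 transcripts it gave 7593 and 1872 rises. Members of 658, 654 and 207 codons missed the threshold at 10 µM in this fit. The member of 373 codons had log2 fold changes of 1.09 without DMSO 1 and 0.88 without DMSO 2. RNA-seq at 1 µM gave 0 member calls in every setting run. No called member changed sign. No paired analysis was possible because each dose has 1 library and shares fewer than 2 numbers with DMSO. Monosome alternatives were not run. With 1 library per dose and few disome counts on some members, small differences were not detectable at this depth.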

Other observations

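Among the transcripts of the row stretch that were not members, 3 of 214, 220 and 222 codons had RNA-seq differences from the DMSO pair of 0.38, 0.30 and 0.49 on the log2 scale at 10 µM. Their disome footprints rose at both doses, by 0.88, 0.79 and 0.74 at 1 µM and by 1.60, 1.91 and 1.39 at 10 µM, with each passing an FDR of 0.05 by edgeR's quasi-likelihood test. The largest disome rise in the stretch, 2.91 at 10 µM, was on a transcript of 127 codons whose RNA-seq difference was 0.57 and which was no member. Of 6 transcripts of 104 codons there, 3 rose and 1 fell in disomes at 10 µM. These transcripts were picked after their values were seen.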
